A study of Mus musculus with 13 samples.

Results

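Dermal condensate and papilla cells are the fibroblasts that gather beneath a forming hair follicle. They were chosen by their own transcripts from single-cell RNA-seq libraries of embryonic mouse back skin, so the genes of the rule are described here and not tested. A cell was counted as a member when it had 600 to 4800 detected genes, at most 10% mitochondrial UMIs, at least 20 UMIs per 10000 from Col1a1, Col1a2 and Col3a1 together, at least 1 UMI of Sox2 and at least 1 UMI of Sox18, Foxd1, Cxcr4 or Bmp3, with no UMI of Sox10, Pecam1 or Atoh1. A UMI is a molecular tag that counts 1 captured transcript. This rule found 651 cells among 51655 kept cells of 61612 barcodes, with 146 members at E14.5 and 505 at E16.5. They were set against 32817 collagen-expressing fibroblasts of the same libraries that had no Sox2 UMI, called Sox2-negative fibroblasts here.

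The dermal condensate is a cluster of fibroblasts that forms under the epithelial placode, and it becomes the dermal papilla when the follicle grows down and wraps around it. Its cells leave the cell cycle early, receive hedgehog and Wnt signals from the epithelium, and send BMPs, FGFs and R-spondins back. Sox2 and Sox18 are transcription factors of condensates of the early follicle waves, Foxd1 and Cxcr4 mark cells that enter a condensate, and Bmp3 encodes a secreted member of the BMP family.

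The study profiled wild-type (WT) mice and littermates with both Grhl3 alleles deleted (Grhl3-/-, marked KO in the plots), on a C57BL/6 background, to follow epidermal differentiation. Grhl3 encodes an epithelial transcription factor, and every Grhl3-/- embryo had spina bifida, so skin was taken from the back in front of the defect. Each library held all cells from the skin of 1 embryo, and the 4 groups of E14.5 WT, E14.5 Grhl3-/-, E16.5 WT and E16.5 Grhl3-/- had 2 libraries each. Nothing else was given to any group. Where 4 values follow each other below, they stand for WT 1, WT 2, Grhl3-/- 1 and Grhl3-/- 2 of one age. P-values measure the spread between these few embryos. By the study's methods, WT and Grhl3-/- embryos of an experiment shared a pregnancy, so age and litter cannot be told apart. By their transcripts, WT 2 was the only female at E14.5 and Grhl3-/- 1 the only male at E16.5. Sex was therefore balanced neither over the ages nor over the genotypes. Both E14.5 Grhl3-/- embryos were male, and both E16.5 WT embryos were female.

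Library totals ran from 57270821 to 79416872 UMIs, and pairs of the 8 libraries shared 52 to 119 cell barcodes (median 77 over 28 pairs). Summed over members, a library gave 235919 to 1070106 UMIs, so that 1 UMI equals 0.934 to 4.24 CPM (UMIs scaled to a common profile total). The Sox2-negative sums held 28033631 to 43261965 UMIs. The E14.5 WT 1 library stood apart. There, 13 of 48 members had 3 or more UMIs of Fabp7, a lipid-binding protein of glia and neural progenitors, and its members held 2435 CPM of Fabp7 against at most 16.3 CPM in the members of the other 7 libraries. These 13 cells had 4 Bmp4 UMIs in all. Grhl3 itself gave 5 UMIs in all members. In keratinocytes it was at 30.6, 34.0, 23.6 and 24.4 CPM at E14.5 and 12.9, 11.96, 9.80 and 5.98 CPM at E16.5, so transcripts of the gene were still counted in the Grhl3-/- libraries and did not check the genotype labels.

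Markers of other cell types had measurable transcripts in the summed profiles. Whether these came from other cells or from the counted cells themselves was not tested, nor was their part in the results. The 12 keratinocyte markers summed to 119 to 433 CPM in members at E14.5 and 331 to 1891 CPM at E16.5, with none at 0, against 159 to 625 and 499 to 2472 CPM in Sox2-negative fibroblasts. The 12 Schwann and neural markers summed to 653 to 3054 CPM in members at E14.5 and 1373 to 1815 CPM at E16.5, against 256.4 to 416 and 237 to 317 CPM, with Foxd3 at 0 in members at E16.5. The macrophage and mast cell markers were lower in members (53.3 to 62.1 and 111 to 262 CPM) than in Sox2-negative fibroblasts (134 to 172 and 361 to 421 CPM), with Aif1 at 0 at E14.5. The 7 blood genes summed to 29061 CPM in E14.5 Grhl3-/- 1 members and 1042 to 1262 CPM in those of the other E14.5 libraries, and to 9895 to 33980 CPM in E16.5 members. In Sox2-negative fibroblasts they summed to 6215 to 8153 and 14339 to 31115 CPM. The 10 endothelial markers summed to 26.6 to 75.0 CPM in members and 43.0 to 54.1 CPM in Sox2-negative fibroblasts. The 9 pericyte and smooth muscle markers summed to 112 to 309 CPM in members at E14.5 and 87.3 to 134 CPM at E16.5. In Sox2-negative fibroblasts they summed to 272 to 302 and 325 to 395 CPM, and Myh11 and Higd1b were at 0 in E14.5 members. The 8 Merkel cell markers gave 0 to 20.1 CPM in members at E14.5 and 0 to 4.95 CPM at E16.5, against 3.47 to 8.95 and 2.11 to 3.17 CPM, with Krt20 and Chga at 0 in members at both ages.

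The label was also set beside genes outside the rule. Their list was compiled with earlier results of these data known, so this is no independent check. Of 40 genes of the dermal condensate and papilla that the rule did not use, a median of 7 had a UMI in a member once each cell was thinned to 1500 UMIs, against 3 in a Sox2-negative fibroblast, at both ages. The 10th to 90th percentiles were 4 to 10 genes at E14.5 and 3 to 11 at E16.5 in members, and 1 to 5 and 1 to 6 in the comparison cells. The distributions overlapped. Of the Sox2-negative fibroblasts, 425 (2.61%) at E14.5 and 1289 (7.80%) at E16.5 reached the member median. Some of these fibroblasts held 2 or more of Sox18, Foxd1, Cxcr4 and Bmp3. Their medians were 3.5, 3, 7 and 6 list genes at E14.5 and 6, 7, 7 and 6 at E16.5. The members also kept fibroblast transcripts: the 10 fibroblast markers summed to 4819 to 6014 CPM at E14.5 and 4417 to 5058 CPM at E16.5, below the 7663 to 9976 CPM of the Sox2-negative fibroblasts.

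**Figure D1:**
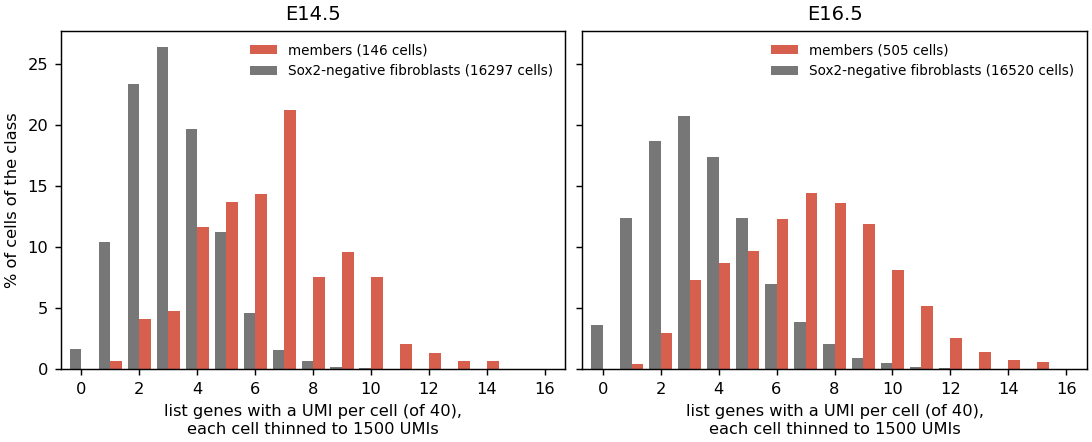
Share of cells (y axis, % of the class) by how many of the 40 dermal condensate and papilla genes outside the rule had a UMI (x axis, cells thinned to 1500 UMIs), for members (red) and Sox2-negative fibroblasts (grey) at each age. The medians are 7 and 3 genes at both ages, and the distributions overlap.

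The rule genes divided the members differently at the 2 ages. These values chose the cells and carry no test. At E14.5, 121 of 146 members (82.9%) had Foxd1, 50 (34.2%) Sox18, 30 (20.5%) Bmp3 and 16 (11%) Cxcr4. At E16.5, 425 of 505 members (84.2%) had Sox18, 296 (58.6%) Bmp3, 226 (44.8%) Cxcr4 and 209 (41.4%) Foxd1. Members with 2 or more of these genes made up 39.7% at E14.5 and 79.4% at E16.5, so Foxd1 led at the younger age and Sox18 at the older. Sox2 itself was at 1 UMI in 69 of 146 and 288 of 505 members. Near the collagen limit, 64 and 211 members lay between 20 and 40 collagen UMIs per 10000, while 12 and 43 cells that met the rest of the rule lay between 10 and 20 and were left out. The Sox10, Pecam1 and Atoh1 limit removed 12 cells.

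Bmp4, a secreted signal that the rule did not use, followed the second genes at E14.5. Pooled over libraries, it stood at 124 CPM in the 119 Sox2-positive fibroblasts with none of the 4 second genes, 304 CPM with 1 and 433 CPM with 2 or more. The 91 Sox2-negative cells with 2 or more second genes held 46.6 CPM of Bmp4, 114 CPM of the hedgehog target Ptch1 and 140 CPM of the Wnt agonist Rspo3, against 27.6, 17.9 and 52.3 CPM in those with none. E14.5 WT 1 supplied 44 of these 91 cells, at 21.8 CPM of Bmp4 against 61.1, 93.3 and 74.5 CPM in the other libraries, and without it the pooled Bmp4 value was 71.9 CPM, a setting added after seeing the data. At E16.5, Sox2-positive cells held 183, 454 and 434 CPM, and the 598 Sox2-negative cells with 2 or more second genes held 461 CPM of Bmp4, 209 CPM of Ptch1 and 320 CPM of Rspo3, against 38.2, 53.0 and 88.6 CPM in Sox2-negative cells with no second gene. These are sums over cells and carry no test.

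Members took a larger share of fibroblasts at E16.5 than at E14.5. Of members and Sox2-negative fibroblasts together, members made up 1.47, 0.616, 0.691 and 0.921% at E14.5 and 3.01, 3.27, 3.36 and 2.34% at E16.5. The exact (Clopper-Pearson) 95% intervals ran from 0.406 to 1.94% over the E14.5 libraries and from 1.91 to 4.02% over the E16.5 libraries, and such intervals cover counting error only. Every E16.5 library lay above every E14.5 library. The means were 0.924 ± 0.386% and 2.99 ± 0.461% (SD, n = 4 each), an odds ratio of 3.44, with p = 0.0286 in a two-sided exact permutation test, the smallest that 4 against 4 allows. Without E16.5 WT 2 or without E16.5 Grhl3-/- 1 the exact permutation p was 0.0571, with odds ratios of 3.33 and 3.29. The separation also depended on the second gene of the rule. With all Sox2-positive fibroblasts counted, a setting added after seeing the data, the shares were 3.01, 1.07, 1.24 and 1.43% at E14.5 and 3.28, 3.52, 3.64 and 2.84% at E16.5, with E14.5 WT 1 above E16.5 Grhl3-/- 2, an odds ratio of 2.17 and an exact permutation p of 0.0571.

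Thinning each cell to 1500 UMIs before the rule was applied gave 0.322, 0, 0.112 and 0.174% at E14.5 and 0.945, 1.10, 0.754 and 0.643% at E16.5, an odds ratio of 8.98 (exact permutation p = 0.0286). That value rests on E14.5 WT 2, which had no member after thinning, and it was 4.37 without this library (exact permutation p = 0.0286), a setting added after seeing the data. A count of 0 of 4522 cells allows a share of up to 0.0663% at 3 counts, with an exact 95% upper bound of 0.0815%. Members had median totals of 7066.5 to 8412 UMIs per cell at E14.5 and 5641.5 to 6287.5 at E16.5. Sox2-negative fibroblasts had medians of 7680 to 8146 and 7399 to 8323.5 UMIs. The part of depth in the share was not tested. The share in the tissue and the recovery of each cell type on dissociation cannot be told apart.

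By genotype, the share was 1.04 ± 0.604% in WT and 0.806 ± 0.163% in Grhl3-/- skin at E14.5, and 3.14 ± 0.183% and 2.85 ± 0.722% at E16.5 (SD, n = 2 each). The values overlapped at both ages. The odds ratio of Grhl3-/- against WT was 0.864, with p = 0.667 in the exact permutation test within ages, whose smallest possible p is 0.0556. It was 1.07 without E14.5 WT 1. In thinned cells the mean shares were 0.161 and 0.143% at E14.5 and 1.02 and 0.699% at E16.5, in WT and Grhl3-/- skin. The odds ratio there, a mean of log odds, was 1.3 with the library at 0 and 0.553 without it (exact permutation p = 0.0556, the smallest possible).

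**Figure D2:**
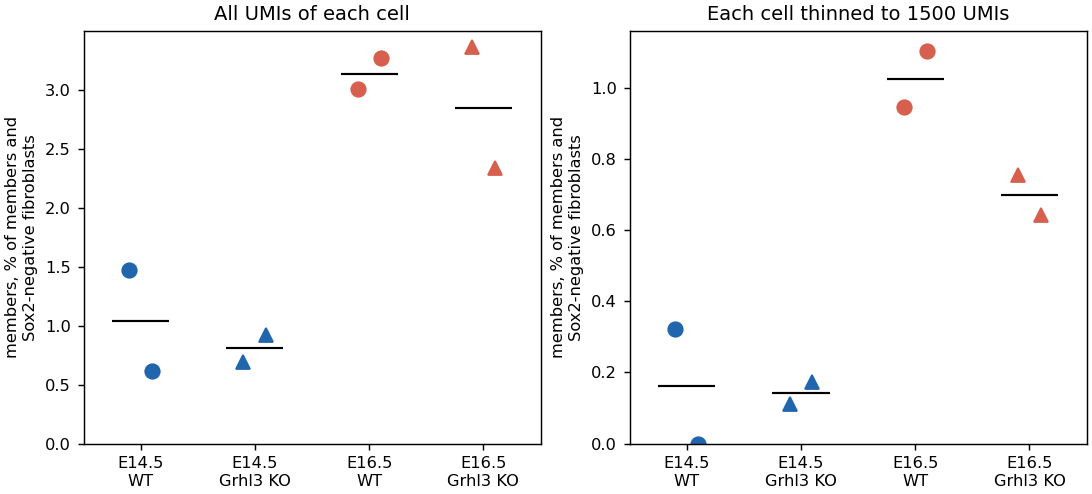
Members as a share of members and Sox2-negative fibroblasts together (y axis, %), each point 1 library and each line a group mean, by age and genotype, in all UMIs and in cells thinned to 1500 UMIs. In all UMIs the E14.5 libraries sit between 0.616 and 1.47% and the E16.5 libraries between 2.34 and 3.36%, with WT and Grhl3-/- libraries mixed at each age.

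The next question was how member transcripts differ from those of other fibroblasts of the same embryos. UMIs were summed over the cells of each class in each library and compared with edgeR's quasi-likelihood test, with the library as a block and Benjamini-Hochberg adjustment. Of 12699 genes tested outside the rule, 1701 were higher in members (13.4%) and 2610 lower (20.6%), at an adjusted p under 0.05. The rule genes were left out of these counts. The median log2 difference over all genes was -0.06.

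Most dermal condensate and papilla genes outside the rule were higher in members. Of the 40 genes, 38 could be tested, 24 were higher and 6 lower, beside 13.4 and 20.6% of all genes, with a median log2 difference of 1.52. In all 8 libraries 20 were higher and 2 lower, beside 8.56 and 11.5% of all genes. At E14.5 alone 21 of 39 were higher (7.19% of all genes) and 4 lower (11.4%), and at E16.5 alone 24 of 38 (15.9%) and 4 (22.2%). Summed profiles cannot tell fewer cells with a transcript from less of it per cell. Without the cells that held 3 or more Fabp7 UMIs, 23 of 38 were higher. The list was compiled with earlier results of these data known, so its direction is no independent evidence.

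**Figure D3:**
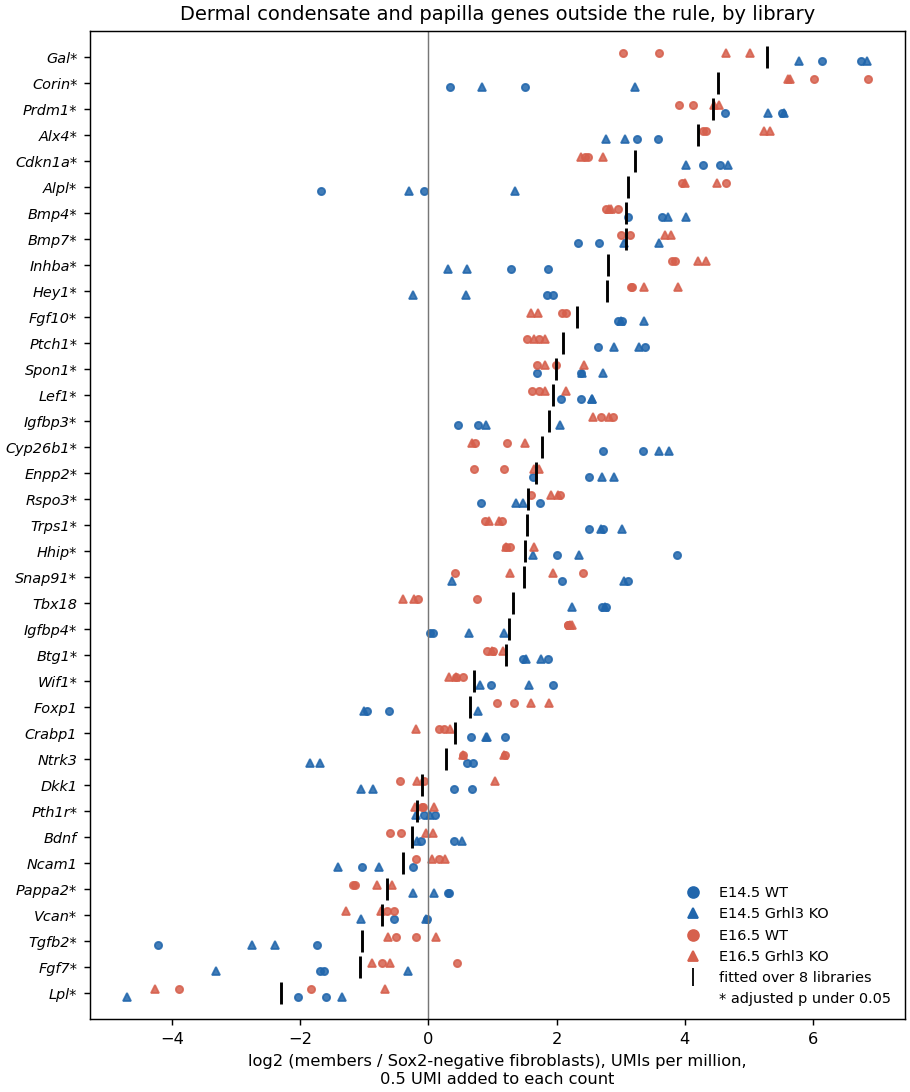
log2 ratio of members to Sox2-negative fibroblasts (x axis, 0.5 UMI added to each count) for tested dermal condensate and papilla genes outside the rule, each point 1 library, with the fitted difference as a black bar and an asterisk for an adjusted p under 0.05. Gal, Prdm1, Cdkn1a, Bmp4 and Bmp7 lie right of 0 in all 8 libraries, and Corin, Alpl and Inhba lie farther right at E16.5 than at E14.5.

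Among secreted signals, Bmp4 (chr14:46383520-46390669, minus strand, GRCm38), which restrains neighbouring placodes and later acts on the hair matrix, stood at 272, 281, 365 and 490.3 CPM at E14.5 and 423, 441, 487 and 398 CPM at E16.5 in members. In Sox2-negative fibroblasts it was at 21.9, 32.5, 27.5 and 30.2 CPM at E14.5 and 54.7, 64.9, 67.6 and 56.6 CPM at E16.5. The classes did not overlap in any library, and the mean was 12.6 times higher in members at E14.5 and 7.17 times at E16.5 (log2 difference 3.09 ± 0.20 SE, adjusted p = 8.05e-06). Bmp4 was detected in 31.3% of thinned members at E14.5 and 37.2% at E16.5, against 4.06 and 7.18% of Sox2-negative fibroblasts, 0.354 and 2.51% of keratinocytes and 0.291 and 0.294% of macrophages. Without thinning the member shares were 72.0 and 61.2%, and those of Sox2-negative fibroblasts 16.9 and 22.0%.

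Bmp7, a related ligand, was at 100.4, 137, 148 and 218 CPM at E14.5 and 257, 263, 318 and 251 CPM at E16.5 in members and between 16 and 32.7 CPM in Sox2-negative fibroblasts (log2 3.08 ± 0.15 SE, adjusted p = 2.83e-09). Edn3 (chr2:174760619-174784042, plus strand), an endothelin that acts on melanocyte precursors, was at 165, 225, 343 and 298 CPM at E14.5 and 161, 175, 194 and 145 CPM at E16.5 against 15.1 to 25.3 CPM (log2 3.23 ± 0.20 SE, adjusted p = 1.81e-06). Nrtn, a neurotrophic factor of the GDNF family, was at 284, 526, 454 and 541 CPM at E14.5 and 324, 271, 236 and 248 CPM at E16.5 against 29.3 to 63.2 CPM (log2 2.76 ± 0.34 SE, adjusted p = 0.000497). All 3 genes were above the comparison class in every library. Fgf10, a growth factor sent to epithelium, was at 98.0, 100.4, 114 and 93.3 CPM at E14.5 and 51.4, 44.6, 39.8 and 40.7 CPM at E16.5 against 10.2 to 13.2 CPM (log2 2.32 ± 0.23 SE, adjusted p = 7.85e-06), with lower levels in members at E16.5 than at E14.5.

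Gal (chr19:3409915-3414544, minus strand), which encodes the neuropeptide galanin, was the list gene with the largest difference. Its level was 246, 309, 419.6 and 293 CPM at E14.5 and 23.4, 24.8, 83.5 and 75.0 CPM at E16.5 in members and 3.5, 2.87, 3.66 and 5.34 CPM at E14.5 and 2.89, 2.07, 2.57 and 3.02 CPM at E16.5 in Sox2-negative fibroblasts (log2 5.29 ± 0.54 SE, adjusted p = 0.000187). All E14.5 member libraries were above all E16.5 ones, and the E16.5 WT libraries were lowest. At E14.5, 31.3% of thinned members had a Gal UMI against 0.478% of Sox2-negative fibroblasts, 0.0796% of keratinocytes and 0.291% of macrophages, and 56.3 and 1.23% of members and Sox2-negative fibroblasts did without thinning.

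Of 30 tested Wnt agonists, inhibitors and receptors, 10 were higher and 7 lower, beside 13.4 and 20.6% of all genes (median log2 0.30). Rspo3, which raises Wnt receptor levels, was at 163, 112, 136 and 136 CPM at E14.5 and 306, 411, 336 and 329 CPM at E16.5 against 48.9 to 101 CPM (log2 1.55 ± 0.095 SE, adjusted p = 1.66e-12). The secreted inhibitor Frzb was at 43.0, 60.2, 93.3 and 104 CPM at E14.5 and 60.7, 54.5, 75.8 and 58.7 CPM at E16.5 against 2.65 to 7.17 CPM (log2 3.78 ± 0.29 SE, adjusted p = 1.43e-06). Both were higher in members of all 8 libraries. The inhibitors Sfrp1, Sfrp2 and Sfrp4 were lower, with log2 differences of -1.71, -1.58 and -2.57, as was Lgr5 (-2.34), an R-spondin receptor.

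Of 11 tested Wnt ligands, Wnt5a (1.51 ± 0.44) and Wnt10a (1.85 ± 0.23) were higher and Wnt2 (-1.89 ± 0.27) lower, beside 13.4 and 20.6% of all genes. Values in brackets are log2 differences with SE. Wnt5a overlapped between the classes at E14.5 and separated at E16.5, where members held 198, 223, 196 and 227 CPM against 35.9, 40.3, 35.9 and 30.3 CPM. Its call was lost without any 1 of the E16.5 libraries, with log2 values from 1.31 to 1.72 and an adjusted p of up to 0.091 in edgeR over all libraries left out in turn. Of 13 Wnt effectors and targets, 4 were higher and 4 lower, beside the same 13.4 and 20.6%, led among the higher ones by the transcription factors Lef1 (1.95 ± 0.12 SE, adjusted p = 2.85e-10) and Tcf7 (1.73).

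Of 13 tested genes of the hedgehog pathway, 4 were higher and 5 lower, beside 13.4 and 20.6% of all genes, with a median log2 difference of 0.14. Ptch1, the hedgehog receptor and a target of its own pathway, was at 136, 157, 199 and 157 CPM at E14.5 and 213, 183, 189 and 228 CPM at E16.5 in members and 22.0, 15.1, 20.5 and 21.3 CPM at E14.5 and 64.6, 63.6, 60.4 and 64.9 CPM at E16.5 in Sox2-negative fibroblasts (log2 2.11 ± 0.29 SE, adjusted p = 0.000967). The targets Gli1 (1.61 ± 0.17) and Hhip (1.51 ± 0.27) were also higher. The co-receptors Gas1 (-2.18 ± 0.12), Cdon (-2.36 ± 0.23) and Boc (-1.34 ± 0.19) were lower, with Disp1 and Gli3. Hhip lost its call when cells with markers of another cell type were left out (log2 0.85).

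Among transcription factors, 17 of 55 tested dermal factors were higher and 18 lower, beside 13.4 and 20.6% of all genes. Prdm1, a zinc finger repressor, was at 40.6, 40.2, 50.9 and 58.6 CPM at E14.5 and 68.2, 92.9, 91.2 and 84.7 CPM at E16.5 in members against 0.892 to 5.32 CPM (log2 4.45 ± 0.20 SE, adjusted p = 1.12e-15). Alx4, a homeobox factor, was at 4.78, 12, 4.24 and 5.33 CPM at E14.5 and 49.5, 58.2, 69.3 and 68.4 CPM at E16.5 against 0.606 to 3.01 CPM (log2 4.21 ± 0.30 SE, adjusted p = 6.28e-12), low at E14.5 and far higher at E16.5. The SoxC factors Sox11 (log2 2.41 ± 0.12 SE, adjusted p = 1.54e-08) and Sox4 (log2 1.63 ± 0.088 SE, adjusted p = 1.54e-11) were higher in members at both ages. Irx1 (-2.37), Meox2 (-2.17), Nfib (-2.13) and the trunk dermis factor En1 (-1.16) were lower.

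Genes of the list did not all follow the label. Lpl, a lipase of the fat lineage (log2 -2.30 ± 0.46), Fgf7 (-1.07 ± 0.28), Tgfb2 (-1.04 ± 0.31), the proteoglycan Vcan (-0.72 ± 0.13), Pappa2 (-0.65 ± 0.18) and Pth1r (-0.18 ± 0.065) were lower in members. Pappa2 was lower in all 4 E16.5 libraries but higher in 3 of 4 at E14.5, where its difference was 0.023. The difference of Pth1r was small against its spread, with members at 296, 337, 365 and 453 CPM at E14.5 and 350.4, 365, 318 and 365 CPM at E16.5 and the comparison class at 311 to 449 CPM, and its call was lost under another scaling (log2 -0.13). Tbx18, Crabp1, Ntrk3, Dkk1, Ncam1, Bdnf and Foxp1 were among those that did not pass, with log2 values from -0.40 to 1.32. Rspo2 and Rspo4 had too few UMIs to be tested. Some calls were lost when 1 library was left out. Wif1 lost its call without any 1 of the 8 libraries (log2 0.56 to 0.83), Igfbp4 without any 1 of the E16.5 libraries (1.13 to 1.47), Cyp26b1 without any E14.5 library but Grhl3-/- 1 or without E16.5 Grhl3-/- 1 (1.54 to 2.04), Pappa2 without E16.5 WT 1 (-0.80 to -0.49) and Tgfb2 without E16.5 Grhl3-/- 2 (-1.27 to -0.88).

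Among genes with an average of 5 or more log2 CPM over the profiles that were higher in every library, the largest difference was that of Pdlim3 (chr8:45885461-45919548, plus strand), a PDZ and LIM protein of the actin cytoskeleton. Gal and Dll1, with larger differences, lay below that average. It was at 57.4, 48.2, 59.3 and 29.3 CPM at E14.5 and 180.4, 194, 196 and 228 CPM at E16.5 in members and 1.57, 1.35, 1.32 and 1.01 CPM at E14.5 and 9.29, 9.44, 7.11 and 9.91 CPM at E16.5 in Sox2-negative fibroblasts (log2 4.51 ± 0.14 SE, adjusted p = 1.85e-19). Hs3st6, a heparan sulphate sulphotransferase, was at 108, 181, 127 and 123 CPM at E14.5 and 222, 311, 284 and 287 CPM at E16.5 against 7.15 to 24.0 CPM (log2 3.64 ± 0.10 SE, adjusted p = 1.63e-20). Both separated the classes in all 8 libraries, and both held more CPM at E16.5 than at E14.5. Fam181b (3.07), the tetraspanin Tspan7 (2.95), the semaphorin receptor Nrp2 (2.59), the transmembrane collagen Col23a1 (2.58), the calcium-binding Cpne5 (2.54) and the surface glycoprotein Cd24a (2.44) were also higher in every library, in log2 units.

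Among genes of the same average level that were lower in every library, the largest difference was that of Cxcl12. Cxcl12, the chemokine that binds the rule gene Cxcr4, was at 33.5, 44.2, 17 and 24.0 CPM at E14.5 and 12.1, 17.3, 8.99 and 24.4 CPM at E16.5 in members and 184, 219, 161 and 193 CPM at E14.5 and 176, 173, 163 and 194 CPM at E16.5 in Sox2-negative fibroblasts (log2 -3.32 ± 0.16 SE, adjusted p = 3.05e-11). The potassium channel Kcnj8 (-3.20, also a pericyte marker), Fibin (-3.07) and the pentraxin Ptx3 (-2.99) were also lower in every library, in log2 units. So were the carboxypeptidase Cpz (-2.98), C1qtnf3 (-2.94), the small leucine-rich proteoglycan Ogn (-2.93), the angiotensin receptor Agtr2 (-2.93) and Islr (-2.88). Of 30 tested genes of the BMP pathway, 5 were higher and 10 lower, beside 13.4 and 20.6%, and the antagonists Grem1 (-2.80), Bmper (-3.80) and Nog (-1.19) were among the lower ones.

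Of 15 reticular dermis and hypodermis genes, 11 were lower and 0 higher (median log2 -1.96), beside a background of 20.6%. Of 51 matrix genes, 24 were lower and 15 higher, beside 20.6 and 13.4%. Dcn, the proteoglycan decorin, was at 1243, 919.6, 640.0 and 927 CPM at E14.5 and 514, 593, 368 and 394 CPM at E16.5 in members and 2738, 2792, 2563 and 2993 CPM at E14.5 and 2985, 3236, 3448 and 3559 CPM at E16.5 in Sox2-negative fibroblasts (log2 -2.34 ± 0.30 SE, adjusted p = 0.000593). Postn (-2.46) and Fn1 (-2.10) were lower as well, while Col23a1 (2.58), Lama2 (2.00) and Col7a1 (1.65) were higher. Members also held less of the 3 collagens of the rule than other fibroblasts, with medians of 40.8 to 49.4 UMIs per 10000 against 96.8 to 246. Of 14 papillary dermis genes 3 were higher and 5 lower, beside 13.4 and 20.6% of all genes.

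Of 18 FGF pathway genes 9 were higher and 4 lower, beside 13.4 and 20.6% of all genes (median log2 0.49), with Fgfr1 (0.78), Fgfr2 (0.49) and Fgfr3 (1.21) and the feedback genes Spry1 (1.15) and Dusp6 (0.98) among the higher ones. Of 20 TGF-beta and activin genes, 7 were higher and 7 lower, beside 13.4 and 20.6%. Of 43 adhesion and motility genes, 13 were higher, among them the receptors Unc5b (2.40), Epha7 (1.91) and Cdh2 (1.71), and 13 lower, among them Sema3c (-2.10) and the scavenging chemokine receptor Ackr3 (-2.01), beside the same shares of all genes.

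Some genes of the Notch pathway were higher in members. Notch receptors are cleaved when they meet Delta or Jagged ligands on a neighbouring cell, and the freed part acts with RBPJ on genes of the Hes and Hey families. Of 15 tested genes, 7 were higher and 0 lower, beside 13.4 and 20.6% of all genes, with a median log2 difference of 1.04, and 3 were higher in all 8 libraries, beside 8.56%. At E14.5 alone 5 were higher and 1 lower, beside 7.19 and 11.4% of all genes, and at E16.5 alone 9 of 16 were higher and 0 lower, beside 15.9 and 22.2%. Dll1 (chr17:15367354-15376872, minus strand), a Delta ligand, was at 43.0, 36.1, 50.9 and 21.3 CPM at E14.5 and 72.0, 75.5, 86.0 and 88.0 CPM at E16.5 in members and 0.499, 0.388, 0.286 and 0.674 CPM at E14.5 and 2.70, 3.53, 1.93 and 2.40 CPM at E16.5 in Sox2-negative fibroblasts (log2 5.22 ± 0.30 SE, adjusted p = 1.52e-10). It was above the comparison class in all 8 libraries.

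Hes5, a repressor that Notch induces, was at 86.0, 0, 4.24 and 16 CPM at E14.5 and 204, 228, 131 and 301 CPM at E16.5 in members and 0.257 to 5.81 CPM in the comparison class (log2 5.38 ± 0.16 SE, adjusted p = 5.3e-19). At E14.5 it was high in WT 1 alone, the library with the Fabp7 cells, and all E16.5 libraries were above that value. Hey1, of the related Hey family, was at 19.1, 16.1, 4.24 and 2.66 CPM at E14.5 and 103, 115, 110.4 and 111 CPM at E16.5 (log2 2.78 ± 0.34 SE, adjusted p = 0.000259). Heyl (2.67 ± 0.25), Lfng (2.25 ± 0.25), a glycosyltransferase that tunes Notch receptors, Notch1 (1.72 ± 0.18) and Hey2 (1.33 ± 0.32) were the other genes that passed. Jag1 (1.04 ± 0.36 SE, adjusted p = 0.0529) did not pass over both ages, and Hes1 was at 23.5 ± 8.78 CPM at E14.5 and 71.7 ± 10.5 CPM at E16.5 (SD, n = 4) in members.

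The letters GTGGGAA, or TTCCCAC on the other strand, are the core that RBPJ binds, and they were looked for in the RefSeq promoters of GRCm38.p6, from 250 bases before to 50 bases after each start. They occurred in 2097 of 32851 promoters (6.38%) and in 3 of the 14 Notch pathway genes with a promoter entry (21.4%), Hes5, Lfng and Hey2. All 3 were among the 5 genes with an entry that were higher in members. A match describes these letters only. The 250 bases before the start are shown for Hes5, the Notch gene with the largest log2 difference, and for Lfng, with the matches in capitals, at -226 and -83 in Hes5 (chr4:154960673-154960922, plus strand) and at -109 in Lfng (chr5:140607091-140607340, plus strand).
Hes5: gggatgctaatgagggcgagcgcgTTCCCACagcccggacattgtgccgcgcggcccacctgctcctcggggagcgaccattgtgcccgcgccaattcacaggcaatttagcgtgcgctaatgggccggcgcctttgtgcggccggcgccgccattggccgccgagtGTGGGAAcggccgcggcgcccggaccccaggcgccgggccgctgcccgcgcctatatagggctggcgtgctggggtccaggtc
Lfng: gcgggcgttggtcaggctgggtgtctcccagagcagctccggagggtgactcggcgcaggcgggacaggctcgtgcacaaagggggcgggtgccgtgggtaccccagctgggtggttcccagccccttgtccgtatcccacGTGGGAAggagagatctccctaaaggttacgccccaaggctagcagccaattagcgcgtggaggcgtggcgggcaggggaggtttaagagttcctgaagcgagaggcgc

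Members held fewer cell cycle transcripts than other fibroblasts. Of 42 S phase genes 37 were lower and 0 higher (median log2 -0.90), and of 52 G2 and M phase genes 47 were lower and 0 higher (median log2 -1.13), beside a background of 20.6%. Mki67, a protein of dividing cells, was at 31.1, 16.1, 29.7 and 2.66 CPM at E14.5 and 19.6, 28.5, 29.5 and 26.1 CPM at E16.5 in members and 46.2, 47.6, 65.5 and 60.1 CPM at E14.5 and 52.7, 50.7, 47.7 and 48.1 CPM at E16.5 in Sox2-negative fibroblasts (log2 -1.26 ± 0.18 SE, adjusted p = 1.44e-05). It was below the comparison class in each library. Pcna, the DNA polymerase clamp, was at 38.2, 40.2, 46.6 and 26.6 CPM at E14.5 and 33.6, 48.3, 61.6 and 42.4 CPM at E16.5 against 60.3 to 82.1 CPM (log2 -0.89 ± 0.12 SE, adjusted p = 1.41e-06), and Top2a was lower by a log2 difference of -1.08 ± 0.19.

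Counted per cell, 56.3, 74.1, 63.3 and 53.7% of E14.5 members and 45.6, 47.5, 45.6 and 42.0% of E16.5 members had 3 or more UMIs of the 94 S, G2 and M phase genes after thinning to 1500 UMIs. In Sox2-negative fibroblasts the shares were 81.7, 80.5, 86.4 and 84.6% at E14.5 and 70.3, 67.6, 65.7 and 65.3% at E16.5. Every library had the lower share in members. The mean difference was -21.8 percentage points, with p = 0.00781 in a two-sided exact sign-flip permutation test over 8 libraries, the smallest it allows, and it was -21.5 ± 10.6 points at E14.5 and -22.0 ± 2.32 points at E16.5 (SD, n = 4). Without thinning nearly all cells passed the limit, the difference was -1.66 points and exact permutation p = 0.125. A limit of 5 UMIs gave -27.9 points. With Sox2 at 2 or more UMIs the difference was -24.1 points. In that setting E14.5 WT 2 went the other way, with 82.4% of 17 members against 80.5%. The count measures transcripts and does not show that a given cell was dividing.

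**Figure D4:**
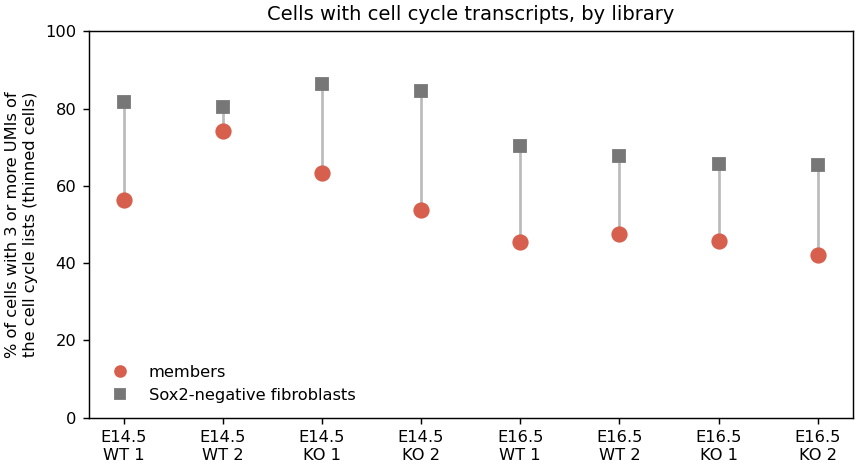
Share of cells with 3 or more UMIs of 94 S, G2 and M phase genes (y axis, %, cells thinned to 1500 UMIs) in members (circles) and Sox2-negative fibroblasts (squares) of each library (x axis). Members lie between 42.0 and 74.1% and below the comparison cells of their own library in all 8.

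Several inhibitors of the cell cycle were higher in members. Cdkn1a (chr17:29090976-29100727, plus strand), which encodes the CDK inhibitor p21, was at 241, 269, 279.8 and 458 CPM at E14.5 and 379, 452, 368 and 417 CPM at E16.5 in members and 12.3, 11.5, 17.3 and 18.0 CPM at E14.5 and 69.4, 80.4, 70.5 and 63.1 CPM at E16.5 in Sox2-negative fibroblasts. No member library overlapped with the comparison class, and the means differed 21.1-fold at E14.5 and 5.71-fold at E16.5 (log2 3.22 ± 0.40 SE, adjusted p = 0.000579). Of 15 arrest genes, 7 were higher and 2 lower, beside 13.4 and 20.6% of all genes. Btg1 (1.21 ± 0.14), Gadd45a (1.57 ± 0.21), Gadd45g (1.77 ± 0.23) and Rb1 (2.27 ± 0.26), each known as a brake on proliferation, were higher. Cdkn2c (-1.51 ± 0.16) was lower, and Cdkn1c stood at 6025, 7988, 5176 and 7394 CPM at E14.5 and 2328, 3541, 1907 and 2827 CPM at E16.5 in members, above the comparison class at E14.5 in every library and mixed at E16.5.

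The comparison of ages asked which member transcripts changed between E14.5 and E16.5. In edgeR's quasi-likelihood test over the 8 member profiles, 645 of 6914 genes were higher at E16.5 (9.33%) and 509 lower (7.36%). In Sox2-negative fibroblasts, whose sums are far deeper, 7407 of 15073 genes differed (49.1%). The classes were not compared at matched depth.

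Lrrc15 (chr16:30269302-30283256, minus strand), a leucine-rich repeat membrane protein of mesenchymal cells, had 0 UMIs in the members of all 4 E14.5 libraries and 153, 155, 176 and 124 CPM at E16.5. With 502 UMIs at E16.5 and a floor of 3 UMIs over the E14.5 group it was at least 65.4-fold higher at E16.5. In Sox2-negative fibroblasts it was at 3.39, 4.50, 5.21 and 3.94 CPM at E14.5 and 7.86, 7.26, 7.35 and 7.98 CPM at E16.5. Tfap2c, an AP-2 transcription factor, was at 0, 4.02, 0 and 0 CPM at E14.5 and 102, 104, 98.9 and 122 CPM at E16.5 in members (log2 7.44 ± 0.52 SE, adjusted p = 8.81e-15), and the bone matrix protein gene Ibsp at 2.39, 8.03, 4.24 and 2.66 CPM at E14.5 and 264, 173, 200.3 and 262 CPM at E16.5 (log2 5.79 ± 0.33 SE, adjusted p = 5.3e-13). In Sox2-negative fibroblasts the log2 changes of Lrrc15, Tfap2c and Ibsp were 1.01, 3.03 and, not past the threshold, 2.94. Ibsp stood there at 37.5, 0.181, 0.114 and 0.0778 CPM at E14.5 and 9.18, 13.9, 8.43 and 6.89 CPM at E16.5. It thus rose in the comparison class too, except against E14.5 WT 1.

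Trim47 (log2 4.98 ± 0.40) and Ndufa4l2 (5.14 ± 0.25), a mitochondrial protein linked to low oxygen, also rose. Both rose in Sox2-negative fibroblasts too (1.14 and 2.89). The epidermal genes Calm4 (6.02) and Stfa3 (4.89) and the peptidase gene Dpep1 (4.63) rose in members, and in Sox2-negative fibroblasts by 4.71, 4.35 and 2.83. Keratin 14 moved with them, at 19.1, 20.1, 12.7 and 21.3 CPM at E14.5 and 275, 229, 64.2 and 58.7 CPM at E16.5 in members and 24.1, 18.0, 22.5 and 72.0 CPM at E14.5 and 244, 377, 111 and 116 CPM at E16.5 in Sox2-negative fibroblasts. The part of keratinocyte RNA in these rises was not tested.

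Of 12 tested Notch genes 7 were higher at E16.5 and 0 lower (median log2 1.35), beside 9.33% of all genes. Hey1 rose by 3.78 ± 0.30, Lfng by 2.95 ± 0.47, Heyl by 2.28 ± 0.25, Jag1 by 2.06 ± 0.41, Hes1 by 1.56 ± 0.25, Notch1 by 1.15 ± 0.25 and Dll1 by 1.12 ± 0.23 on the log2 scale (SE). Dll1 also rose in Sox2-negative fibroblasts, by a larger factor though at far lower levels, with every E16.5 library above every E14.5 one. Without the Fabp7 cells 9 of the tested genes were higher, and without E14.5 WT 1 8 of 13. Hes5 did not pass (3.10 ± 0.82 SE, adjusted p = 0.0863). E14.5 WT 1 held 86.0 CPM of it and the other E14.5 libraries 0 to 16 CPM.

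Of 32 tested dermal condensate and papilla genes, 15 were higher at E16.5 and 6 lower, beside 9.33 and 7.36% of all genes, and 13 and 6 without the Fabp7 cells. Inhba, an activin subunit, was at 71.7, 88.4, 33.9 and 63.9 CPM at E14.5 and 234, 266, 298 and 262 CPM at E16.5 in members and 29.8, 24.8, 29.2 and 43.1 CPM at E14.5 and 16.2, 19.1, 16.1 and 13.1 CPM at E16.5 in Sox2-negative fibroblasts (age log2 2.05 ± 0.15 SE, adjusted p = 2.1e-14). Corin, a papilla protease, was at 2.39, 0, 0 and 2.66 CPM at E14.5 and 36.4, 33.4, 25.7 and 34.2 CPM at E16.5 (log2 4.18 ± 0.57 SE, adjusted p = 2.87e-07). Alpl, the alkaline phosphatase by which papillae are stained, was at 9.56, 0, 0 and 2.66 and 72.9, 58.2, 61.6 and 94.5 CPM (log2 4.40 ± 0.44 SE, adjusted p = 3.96e-10). At E14.5 both overlapped with the comparison class, and the class difference there was 0.53 for Corin and -0.67 for Alpl, while at E16.5 every member library was above it.

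The rise of Bmp4 with age in members was small (0.34 ± 0.11 SE, adjusted p = 0.0266), and its call was lost without E14.5 WT 1, E14.5 Grhl3-/- 1, E16.5 WT 1, E16.5 WT 2 or E16.5 Grhl3-/- 1, with values from 0.25 to 0.46. The Wnt regulators Rspo1 (2.87 ± 0.21), Sost (2.59 ± 0.47), Notum (2.49 ± 0.33), Fzd10 (2.27 ± 0.61), Dkk1 (1.64 ± 0.37) and Lgr4 (1.51 ± 0.49) rose, and 9 of 21 tested Wnt agonists, inhibitors and receptors were higher and 2 lower, beside 9.33 and 7.36%. The hedgehog list gave 2 of 9 higher, Ptch1 and Smo, and 0 without the Fabp7 cells or without E14.5 WT 1.

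Genes of the younger cells fell. Gal dropped from 317 ± 73.4 to 51.6 ± 32.0 CPM (SD, n = 4 each, log2 -2.81 ± 0.15 SE, adjusted p = 4.42e-19). Tbx18 (chr9:87702800-87731260, minus strand), a T-box factor of the condensate, was at 277, 245, 208 and 199.8 CPM at E14.5 and 63.5, 35.9, 32.1 and 27.7 CPM at E16.5 in members and at 30.9 to 42.6 CPM in Sox2-negative fibroblasts, so that it separated the classes at E14.5 only and members dropped to the level of the other fibroblasts at E16.5 (age log2 -2.55 ± 0.16 SE, adjusted p = 4.34e-16). Scnn1b, a sodium channel subunit, went from 74.1, 80.3, 67.8 and 93.3 to 8.41, 3.72, 3.85 and 6.52 CPM (log2 -3.76 ± 0.30 SE, adjusted p = 3.88e-13).

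Nrgn (log2 -4.54 ± 0.30), a calmodulin-binding protein, Igfbp5 (-3.05 ± 0.24), 3632451O06Rik (-2.96 ± 0.32), the lymphangiogenic factor Figf (-2.82 ± 0.38) and Tex15 (-2.82 ± 0.30) also fell, and all 5 fell in Sox2-negative fibroblasts, with log2 changes of -1.81, -0.57, -0.85, -0.66 and -2.25. Crabp1, a retinoic acid binding protein, was at 3866 ± 851 CPM at E14.5 and 736 ± 128 CPM at E16.5 in members (-2.39 ± 0.092 SE, adjusted p = 2.72e-18). Twist2, a dermal fibroblast factor, was at 1218 ± 242 and 506 ± 60.6 CPM (-1.26 ± 0.11 SE, adjusted p = 1.3e-10) in members, while Sox2-negative fibroblasts were at 729 ± 133 and 810.1 ± 49.7 CPM.

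**Figure D5:**
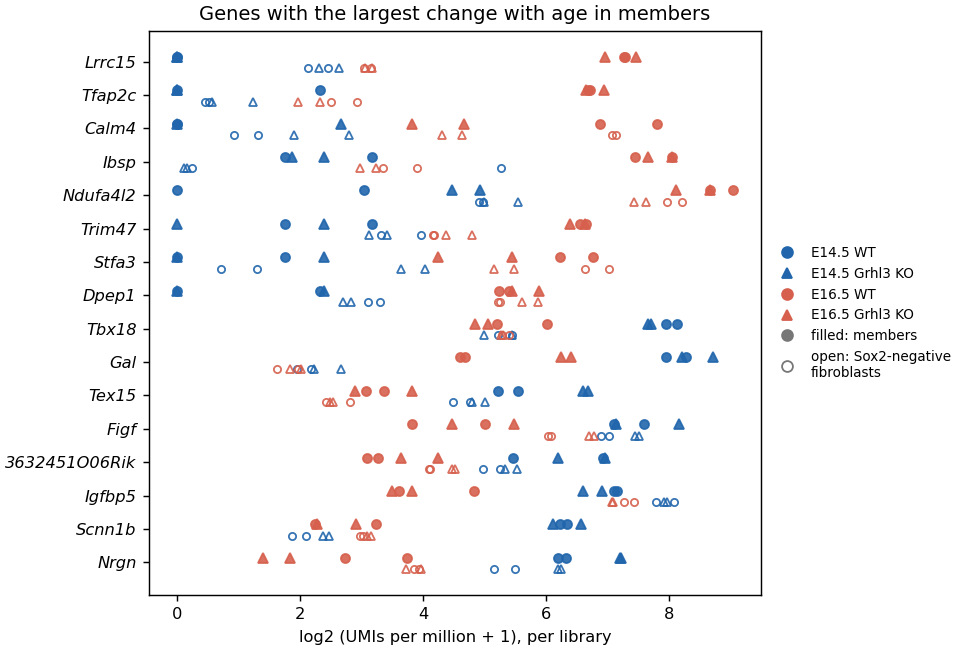
log2 (CPM + 1) per library (x axis) of the 8 genes with the largest rise and the 8 with the largest fall, among those with an average of 5 or more log2 CPM that did not overlap between the ages, from E14.5 (blue) to E16.5 (red) in members (filled) and in Sox2-negative fibroblasts (open), circles WT and triangles Grhl3-/-. Lrrc15 is at 0 in all E14.5 members, and Tbx18 is high in E14.5 members and at the level of the Sox2-negative fibroblasts at E16.5.

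A class by age interaction tested whether members and Sox2-negative fibroblasts differed by the same amount at both ages. The log2 ratio of members to Sox2-negative fibroblasts was higher at E16.5 for 592 of 12699 genes (4.66%) and lower for 519 (4.09%), which gives the sign of the change and not the size of the gap. Among the 38 tested dermal condensate and papilla genes the ratio was higher for 10 and lower for 16. Rspo1 (chr4:124986430-125009099, plus strand), an R-spondin, turned around. It was at 23.9, 20.1, 17 and 18.7 CPM at E14.5 and 129.9, 147, 155 and 165 CPM at E16.5 in members and 61.5, 71.5, 103 and 118 CPM at E14.5 and 37.5, 42.7, 38.1 and 42.0 CPM at E16.5 in Sox2-negative fibroblasts, lower in members in every E14.5 library and higher in every E16.5 library (interaction log2 3.87 ± 0.22 SE, adjusted p = 6.29e-44). Inhba (2.89 ± 0.18), Corin (5.32 ± 0.78) and Alpl (4.80 ± 0.52) had higher ratios at E16.5, and Cdkn1a (-2.01 ± 0.12), Trps1 (-1.81 ± 0.15), Ptch1 (-1.44 ± 0.15) and Cyp26b1 (-2.36 ± 0.22), a retinoic acid degrading enzyme, lower ones. None of the last 4 fell with age in members past the threshold. Ptch1 was called higher at E16.5 there, a call lost without the Fabp7 cells or without E14.5 WT 1. Pooled Trps1 in members with 1 and with 2 or more second genes was at 133 and 145 CPM at E14.5. At E16.5 it was at 300 and 318 CPM. In the comparison class the 4 genes rose by 2.45, 3.06, 1.85 and 2.36.

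Genes of dissociation stress also changed with age in members, where 11 of 16 tested were higher at E16.5 and 2 lower, beside 9.33 and 7.36% of all genes. Junb was at 90.8, 64.3, 50.9 and 66.6 CPM at E14.5 and 361, 372, 461 and 481 CPM at E16.5 in members (log2 2.57 ± 0.13 SE, adjusted p = 4.42e-19) and 105, 119.6, 227 and 166 CPM at E14.5 and 228, 210.1, 279 and 343 CPM at E16.5 in Sox2-negative fibroblasts. The 18 stress genes together held 4226 to 5068 CPM in members at E14.5 and 5652 to 6360 CPM at E16.5, against 5936 to 6491 and 5150 to 6016 CPM in Sox2-negative fibroblasts. Their part in the other changes with age was not tested.

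The comparison of genotypes asked whether members of Grhl3-/- skin differed from those of WT skin, with 2 libraries a side. At E14.5 edgeR's quasi-likelihood test called 17 of 6914 genes (0.246%), 7 higher and 10 lower in Grhl3-/- members. At E16.5 it called 20 (0.289%), 3 higher and 17 lower. At an unadjusted p under 0.05 there were 562 and 304. No gene passed in the genotype by age interaction (0 of 6914 in edgeR, 448 at an unadjusted p under 0.05). Of the 32 tested dermal condensate and papilla genes 1 was called at each age, Lef1 at E14.5 and Gal at E16.5. In Sox2-negative fibroblasts, whose sums are far deeper, 651 genes (4.32%) differed at E14.5 and 174 (1.15%) at E16.5. These counts were not compared at matched depth. In simulated data the member test found 21 of 100 changes of 2-fold at E14.5 and 33 of 100 at E16.5. A low count in members therefore does not show that their transcripts were unchanged.

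At E14.5, Lef1 was at 134, 120.5, 208 and 248 CPM (0.86 ± 0.19 SE, adjusted p = 0.0327), Sox11 at 244, 369, 517 and 488 CPM (0.75 ± 0.17 SE, adjusted p = 0.0327) and Sox4 at 421, 546, 784 and 719 CPM (0.66 ± 0.15 SE, adjusted p = 0.0327), each higher in both Grhl3-/- libraries than in both WT libraries. Cd24a (0.58 ± 0.12) and the small GTPase Arf5 (0.83 ± 0.17) were also higher.  Sepp1 (-1.71 ± 0.37), Fxyd6 (-1.57 ± 0.33), Sfrp2 (-1.13 ± 0.23), Arl6ip1 (-1.06 ± 0.23) and Ndn (-0.81 ± 0.19) were lower. Of these 10 genes, 4 changed the same way in Sox2-negative fibroblasts past the threshold, Arf5 (log2 0.82), Lef1 (0.50), Sfrp2 (-1.02) and Ndn (-0.34). Their class by genotype interactions in edgeR did not pass (lowest adjusted p of 0.542). For Sox11, Sox4, Cd24a, Sepp1, Fxyd6 and Arl6ip1 this interaction passed (adjusted p from 1.16e-06 for Sox11 to 0.0131 for Cd24a). WT 1 is the library with the Fabp7 cells, while WT 2 had 0 such members. For these 10 genes WT 2 also lay apart from both Grhl3-/- libraries, as their choice required. Without the Fabp7 cells 1 gene was called at E14.5 and none of the 10 passed, and the part of these cells was not tested. The count was 109 without E14.5 WT 2, 5 without E14.5 WT 1, 4 without E14.5 Grhl3-/- 1, 5 without E14.5 Grhl3-/- 2 and 26 without E16.5 Grhl3-/- 1. At E14.5, WT 2 was the only female embryo by its transcripts, so sex and library cannot be told apart there. The study's methods give 1 male and 1 female embryo for each genotype and age, which these transcripts go against.

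At E16.5, Gal was at 23.4, 24.8, 83.5 and 75.0 CPM (1.74 ± 0.25 SE, adjusted p = 1.62e-05), with both Grhl3-/- libraries above both WT libraries, and the class by genotype interaction had an adjusted p of 0.0445. Only 6.51 to 8% of members had a Gal UMI in a library without thinning, and Gal lost its call when Sox2 was required at 2 or more UMIs (0.58) or when cells with markers of another cell type were left out (0.58). The elastin gene Eln was at 113, 139, 276 and 239.6 CPM (1.07 ± 0.16 SE, adjusted p = 3.3e-05) and Filip1l at 48.6, 47.1, 89.9 and 94.5 CPM (0.95 ± 0.23 SE, adjusted p = 0.04996), each higher in both Grhl3-/- libraries. In Sox2-negative fibroblasts Eln was at 313, 324, 429 and 492 CPM and Filip1l at 23.6, 14.9, 25.7 and 24.2 CPM. There, too, both genes were higher in both Grhl3-/- libraries, without passing the threshold. Their class by genotype interactions in edgeR did not pass (adjusted p of 0.252 and 0.993).

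Among genes with an average of 5 or more log2 CPM, the 5 largest falls at E16.5 were in genes of the outer epidermis. Lor, which encodes loricrin of the cornified layer, was at 314, 321, 28.2 and 9.78 CPM in members (-3.95 ± 0.24 SE, adjusted p = 1.54e-12) and at 347, 334, 14.46 and 3.93 CPM in Sox2-negative fibroblasts. Hrnr (-6.26 ± 0.60), Asprv1 (-3.09 ± 0.37), Calm4 (-3.07 ± 0.42) and Krtdap (-2.65 ± 0.38), also of differentiated keratinocytes, were lower in Grhl3-/- members. In Sox2-negative fibroblasts all 5 were likewise higher in both WT libraries than in both Grhl3-/- libraries, with Calm4 at 133, 139, 18.7 and 23.8 CPM and Krtdap at 235, 253, 48.8 and 60.4 CPM. The 12 keratinocyte markers summed to 1625, 1891, 805 and 331 CPM in members and 1567, 2472, 499 and 617 CPM in Sox2-negative fibroblasts, and their part in the result was not tested. With cells that held markers of another cell type left out, 94, 53, 62 and 54 members remained at E16.5. Of 4843 genes then tested, 1 was called at E16.5. The count was 37 without E16.5 Grhl3-/- 2 and 13 without either E16.5 WT library. Grhl3-/- 1 was the only male embryo at E16.5 by its transcripts, so sex and library cannot be told apart there either.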

How the data were processed

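Each E14.5 and E16.5 library was made from dissociated back skin with 10x 3' chemistry. The P0 libraries were made from back epidermis taken off the dermis. The authors aligned reads to mm10 with Cell Ranger and deposited gene by barcode UMI counts, used here as raw counts. The labels give Cell Ranger 1.3.1, while the paper's methods give a later version. The 8 libraries of E14.5 and E16.5 were used, and the 5 P0 libraries only to count cells that meet the rule at other limits on detected genes. No doublet caller was run, and an alternative left out cells with markers of another cell type. The members and lists were chosen with earlier results of these data known.

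Counts were summed per class and library, scaled by TMM, filtered with filterByExpr and tested with edgeR 4.0.16 (quasi-likelihood, limma 3.58.1, R 4.3.3; Benjamini-Hochberg, threshold 0.05), with the library as a block between classes, and over 4 groups for age and genotype. DESeq2 1.42.0 was an alternative. The procedure was tested on simulated data. Shares were compared by exact permutation on log odds (0.5 added; scipy 1.17.1). Shares and cell cycle counts were repeated in cells thinned to 1500 UMIs. Beside rule and list genes, the text names the 15 largest rises and 10 largest falls between classes, 8 each way with age, 6 each way in the interaction and 5 each way by genotype, each taken from called genes whose average log2 CPM reached 5 and that kept 1 direction in every library or did not overlap between groups, without sex genes. A few genes that this rule takes in are not reported here. Coordinates are from GENCODE on GRCm38. Samples with the same replicate number did not deviate together (correlations -0.016 and 0.005), and the main tests did not pair them. Counting error in the member sums also draws such correlations towards 0, so they cannot exclude a pairing.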

Additional observations from a re-analysis of the deposited data

Results flagged for a closer look

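The difference between members and Sox2-negative fibroblasts itself differed between the ages for 1111 genes, by the class by age interaction in edgeR at an adjusted p under 0.05. Among genes with an average of 5 or more log2 CPM whose ratios did not overlap between the ages, the log2 ratio of members to Sox2-negative fibroblasts rose most from E14.5 to E16.5 for the embryonic globin gene Hbb-y (log2 interaction 4.94), Rspo1 (3.87), Ifitm1 (3.42), Myl9 (2.99), Serpine2 (2.97) and Inhba (2.89). Hbb-y lost its call without any 1 of 7 libraries, and 46 of its 50 member UMIs at E16.5 came from Grhl3-/- 1. WT 1, WT 2 and Grhl3-/- 2 gave 3, 1 and 0, so its ratios separate the ages only when a count is added to that 0. Under the same 2 conditions the ratio fell most for Tbx18 (-2.60), Penk (-2.56), Igfbp5 (-2.39), Cyp26b1 (-2.36), Igfbp7 (-2.36) and Nrgn (-2.35). Called genes outside these conditions had larger values, among them Ibsp (6.11), Corin (5.32), Lrrc15, which was at 0 in E14.5 members, and, among the falls, Scnn1b (-4.90). For Ibsp, Sox2-negative fibroblasts were at 37.5 CPM in E14.5 WT 1 and at 0.181, 0.114 and 0.0778 CPM in the other E14.5 libraries. Members there held 2.39, 8.03, 4.24 and 2.66 CPM, below the comparison class in WT 1 alone. Igfbp7 lost its call when cells with markers of another cell type were left out and when comparison cells were matched in UMIs.

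In the P0 libraries 11 cells met the rest of the rule. These libraries enter no comparison and were kept at 900 to 7700 detected genes in place of 600 to 4800. They were made from epidermis without the dermis, and each held 1 to 25 Sox2-negative fibroblasts at these limits. The 11 cells are thus no count of papilla cells in P0 skin.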

How the results depend on the processing

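Over the alternatives, 319 of 539 tests of single genes kept direction and side of the threshold throughout, and of 6782 values 620 lost significance and 11 reversed. With the E14.5 libraries alone, the class difference reversed for Alpl (-0.67), Col11a1 (-0.16), Col13a1 (-1.12), Esam (0.20), Gas2l3 (0.27), Notum (-0.46), Nr2f2 (0.28), Pappa2 (0.023), Skil (-0.010) and Tgfbr3 (0.035), and without cells holding markers of another cell type for Nr2f2 (0.051). Genes higher in members numbered 918 at E14.5 alone and 509 in profiles thinned to the lowest total. Lower genes numbered 1451 at E14.5 alone, 1487 with comparison cells matched in UMIs and 583 thinned, and interaction genes 331 thinned. Age genes numbered 565 in DESeq2, 721 with Sox2 at 2 or more UMIs, 650 without marker cells and 615 thinned. Genotype genes at E14.5 numbered 8 in DESeq2, 6 with Sox2 at 2 or more UMIs, 1 without marker cells, 1 without members of 3 or more Fabp7 UMIs (an alternative chosen after seeing the data) and 72 with no filter on low counts. At E16.5 they numbered 10, 8 and 1 in the first 3 of these settings, 64 with no filter and 8 thinned. The cause was not tested. Thinning lowers depth by construction. The log odds difference of the member share by genotype was 0.26 in thinned cells, where E14.5 WT 2 had no member, and -0.59 without that library. By age it was 0.77 with all Sox2-positive fibroblasts counted (both settings chosen after seeing the data), and the cell cycle share differed by -1.66 points in cells not thinned. Without 1 library at a time, the counts ran from 1411 to 1816 (higher), 2080 to 2558 (lower), 925 to 1084 (interaction), 851 to 1110.0 (age), 4 to 109 (genotype, E14.5) and 13 to 37 (E16.5), the share by age from 1.12 to 1.41, by genotype from -0.36 to 0.071, and the cell cycle difference from -23.9 to -20.4 points. The age call of the share was lost without E16.5 WT 2 or E16.5 Grhl3-/- 1 (exact permutation p = 0.0571 each, with a smallest possible p of 0.0286). With a replicate block, the age test called 645 genes higher and 503 lower, and the genotype share was -0.15 (exact permutation p = 0.75). DESeq2's size factors (RLE) gave 1946 higher and 2305 lower genes between the classes, and 499 and 627 in the interaction.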
